A study of Mus musculus with 16 samples.

Results

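Genes of the sine oculis homeobox (Six2, Six4, Six5), Eya and Pax families that act in urogenital development were followed across the early mouse cloaca and its derivatives. The 9 genes, the others being Eya1, Eya2, Eya3, Eya4, Pax2 and Pax8, were chosen by exact match in the gene name field. Each matched 1 of 23234 features, none of them a feature with a joint name. Tissue was cut by laser from frozen sections of wild-type male CD1 embryos, an outbred stock, with no embryos pooled per the labels. At E10.5 the pieces were the dorsal and the ventral cloaca, the chamber that gut and urinary tract share at that age. At E13.5 they were the hindgut (labelled as hindgut and rectal epithelium) on the dorsal side and the pelvic urethra (labelled as its epithelium) on the ventral side. Both regions were cut from the same 4 embryos at each age, 16 libraries in all, but the deposited tables hold only 1 value per gene and region. That value is an FPKM, a fragment count scaled to transcript length and library size. Variation among embryos is therefore not shown, no p-value is given, and the differences have no replicate check.

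Six2, Six4 and Six5 are homeodomain transcription factors that bind DNA and draw on co-factors for activation. Eya proteins do not bind DNA themselves; they join such homeodomain proteins as co-activators and also carry a phosphatase activity, while Dach proteins act as co-repressors in the same network. Pax2 and Pax8 are paired-domain transcription factors that act upstream of or beside this network in the nephric duct and kidney. In the mouse embryo Eya1 and Six2 are known from the mesenchyme around the cloaca and from kidney progenitors, and mutations of human EYA1 cause branchio-oto-renal syndrome.

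Epithelial RNA, which the E13.5 labels call for, was present in all 4 columns. Epcam, an adhesion gene of epithelia, stood at 237 FPKM in dorsal and 184 in ventral cloaca, and at 377 in hindgut and 235 in urethra. Markers of mesenchyme were also present and did not go one way. Prrx1, a mesenchymal transcription factor gene, stood at 44.7 and 65.1 FPKM in dorsal and ventral cloaca and at 2.08 and 8.29 in hindgut and urethra. The summed FPKM of 13 mesenchymal markers was 112 dorsally and 114 ventrally at E10.5, and 136 in both regions at E13.5. These even sums hold genes on both sides. Of 9 kept at E10.5, 2 were at least 1 log2 unit higher ventrally and 2 dorsally. The shares of all kept features were 10.6% and 9.62%. Of 12 kept at E13.5, 3 leaned that far to the hindgut and 2 to the urethra, beside 4.59% and 4.16% of all kept features. Col3a1, a fibrillar collagen gene, stood at 13.2 FPKM in dorsal and 3.36 in ventral cloaca, and at 14.4 in hindgut and 6.23 in urethra. Among 10 genes of skeletal muscle precursors, which also use genes of both families, Myod1 and Myog were listed at 0 in all 4 columns, but Des, the desmin gene, which smooth muscle also expresses, stood at 10.9 FPKM in dorsal and 1.76 in ventral cloaca. Of that list 3 genes were kept at E10.5 and 1 at E13.5, Msc, at 0.0654 FPKM in hindgut and 1.63 in urethra. Summed markers of endothelium did not pass 2.07 FPKM and those of neurons and neural crest 5.26; germ cell markers summed to 27.7 and 14.9 FPKM in dorsal and ventral cloaca and to 32.2 and 10.1 in hindgut and urethra. Most of that was Kit, a receptor gene that other cells also express, at 24.3, 12.7, 28.6 and 7.11 FPKM in the same order. Nanos3 stood at 1.96, 1.75, 2.8 and 1.83 FPKM. Pou5f1 stood at 1.36 and 0 FPKM in dorsal and ventral cloaca, and at 0.787 and 0.485 in hindgut and urethra. Dazl, Ddx4 and Dppa3 did not pass 0.672.

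Eya1 was the member with the clearest lean, towards the ventral side at both ages. It stood at 3.04 FPKM in dorsal and 9.71 in ventral cloaca at E10.5, and at 0.582 in hindgut and 3.60 in urethra at E13.5. The ventral level was thus 3.19 times the dorsal one at the earlier age and 6.18 times at the later. As a difference of log2(FPKM + 1), ventral minus dorsal, this was 1.41 and 1.54. With 1 added to each value, differences of low genes come out too small; features with at least 1 FPKM in either region were kept for counting. In such bulk tissue, fewer cells of a type and less RNA per cell cannot be told apart.

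**Figure D1:**
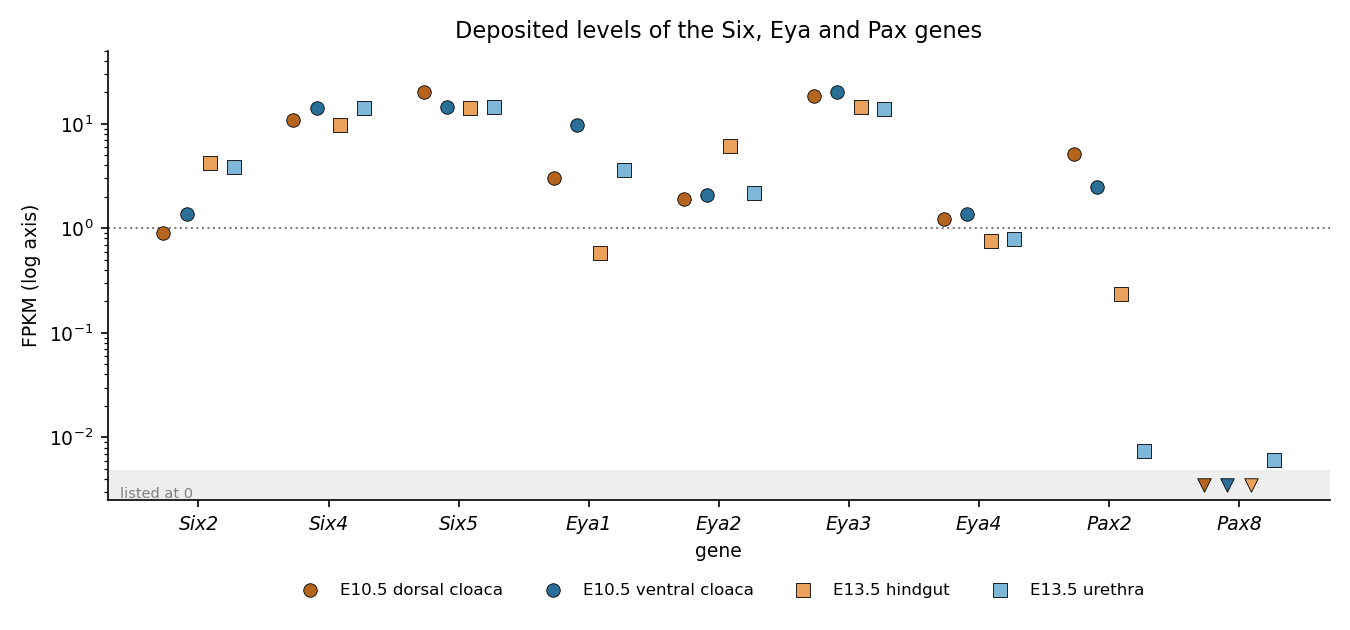
Deposited FPKM of each of the 9 genes (log axis) in dorsal and ventral cloaca at E10.5 (circles) and hindgut and urethra at E13.5 (squares), 1 value per region and age. Triangles in the grey band mark values listed at 0 and the dotted line marks 1 FPKM. Six4, Six5 and Eya3 lie between 9.70 and 20.3 in every column, while Pax8 does not pass 0.00602.

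Set against all kept features, Eya1 lay near the ventral end: 94.7% of 12379 kept features had a lower difference at E10.5, and 98.4% of 12369 at E13.5. It was the only member at least 1 log2 unit (2-fold on that scale) higher ventrally, among the 8 members kept at E10.5, where 10.6% of all kept features were. No member was that much higher dorsally, against 9.62% of all kept features; in either direction the background was 20.2%. At E13.5 it was again the only one of 6 kept members that much higher in urethra, against 4.16% of all kept features. Its hindgut level lay below the minimum, so that at E13.5 it was kept through the urethra alone. Of 11486 features kept at both ages, 1.58% were at least 1 unit higher ventrally at both, as Eya1 was, and 1.18% dorsally at both, as no member was. These shares leave the count of members near the background at E10.5, and nothing is read from counts of 1 gene.

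Most genes listed as markers of surface ectoderm went the same way as Eya1. Of 10 such markers, 9 were at least 1 log2 unit higher in ventral cloaca and 5 in urethra. Their summed FPKM was 50.4 dorsally and 273 ventrally at E10.5, and 851 in hindgut and 1390 in urethra. Of the hindgut sum, Krt15 made up 517 FPKM, against 474 in urethra, a difference of -0.13. Whether ectoderm cells were present in the tissue was not tested. Embryonic red cell genes stood higher ventrally too, at a sum of 886 and 1180 FPKM at E10.5 and of 35.3 and 76.6 at E13.5, with 2 of 6 kept genes past 1 unit at E10.5 and 2 of 3 at E13.5. The part of any ectoderm or red cells in the Eya1 difference was not tested.

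Eya2 was close to even at E10.5 and higher on the hindgut side at E13.5. Its levels were 1.92 FPKM in dorsal and 2.09 in ventral cloaca, and 6.17 in hindgut and 2.17 in urethra. The difference was 0.08 at E10.5 and -1.18 at E13.5, where the hindgut level was 2.84 times that of the urethra. It was the only member at least 1 unit higher in hindgut, against 4.59% of all kept features (8.76% in either direction), and 3.35% of kept features had a lower difference. General epithelial genes mostly leaned the same way, with a median difference of -0.61. Their summed FPKM was 3510 in hindgut and 1930 in urethra, with 3 of 14 at least 1 unit higher in hindgut and none in urethra. Grhl2 and Esrp1 of that list were higher in urethra, at 25.3 against 18.3 FPKM and 55.2 against 48.9. The part of these epithelial genes in the Eya2 difference was not tested.

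The order of Eya1 and Eya2 was thus turned round in hindgut. The level of Eya1 was 1.58 times that of Eya2 in dorsal cloaca, 4.64 times in ventral cloaca and 1.66 times in urethra, but in hindgut Eya2 stood at 10.6 times Eya1. Dividing a column by a constant leaves such ratios as they are; quantile normalization need not.

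Eya3 and Eya4 were even between regions. Eya3, the most widely expressed of the family, stood at 18.3 FPKM in dorsal and 20.3 in ventral cloaca, and at 14.4 in hindgut and 13.9 in urethra. Eya4 stood at 1.23 and 1.36 FPKM at E10.5 and at 0.764 and 0.782 at E13.5, below the minimum at the later age. All 4 of these differences lay between -0.05 and 0.15, and that of Eya4 at E13.5, 0.01, turned to -0.06 under quantile normalization.

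Eya3 supplied most of the Eya RNA in every column, measured per length: 74.7% of the summed FPKM of the 4 genes in dorsal cloaca, 60.7% in ventral cloaca, 65.8% in hindgut and 68.0% in urethra. What differed was the rest. The share of Eya1 was 12.4% dorsally and 29% ventrally at E10.5, and 2.65% in hindgut and 17.6% in urethra. Eya2 held 28.1% in hindgut and 6.25% to 10.6% elsewhere. The sum itself was 24.4 FPKM in dorsal and 33.5 in ventral cloaca, and 22 in hindgut and 20.5 in urethra.

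**Figure D2:**
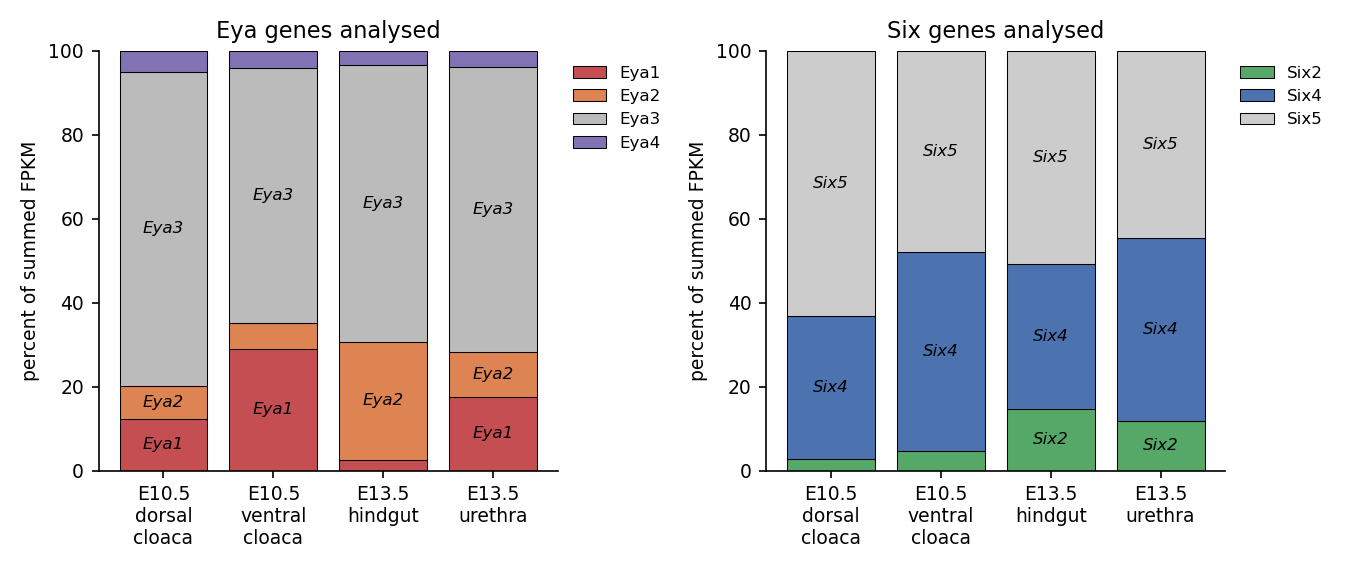
Share of each gene in the summed FPKM of the 4 Eya genes (left) and of Six2, Six4 and Six5 (right), in percent, for the 4 columns of the tables. Eya3 fills most of each Eya bar; Eya1 is widest in ventral cloaca at 29%, and Eya2 in hindgut at 28.1%.

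The Eya genes are paralogs, and their reads are hardest to tell apart where their transcripts match. A stretch of coding exon is shown for that reason: the 60 bases of Eya1 that are most like Eya2, with the nearest match in the other paralogs, from GENCODE M21 on GRCm38 (mm10). Capitals mark bases that differ from Eya1. They are 5′ to 3′ on the coding strand.
Eya1: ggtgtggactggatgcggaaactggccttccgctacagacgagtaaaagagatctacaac
Eya2: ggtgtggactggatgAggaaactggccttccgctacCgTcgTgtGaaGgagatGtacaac
Eya3: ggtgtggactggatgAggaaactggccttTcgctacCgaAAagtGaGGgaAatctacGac
Eya4: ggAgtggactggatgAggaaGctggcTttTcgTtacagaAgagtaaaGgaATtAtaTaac

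The Eya1 stretch lies at chr1:14184371-14184430 on the minus strand, in exon 13 of 17 of the transcript used. That of Eya2 lies at chr2:165763776-165763835 on the plus strand, in exon 12 of 16, and matches at 53 of 60 positions. Eya3 (chr4:132707042-132707101, plus strand) matches at 50 and Eya4 (chr10:23116575-23116634, minus strand) at 48. Over whole coding sequences 61.0% to 70.1% of aligned bases were identical, and the longest exact run shared by any pair of Eya transcripts was 29 bases, between Eya2 and Eya3. The Eya1 and Eya2 transcripts share no exact run longer than 20 bases.

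On mm10, Eya1 (XLOC_000660) spans 14168958 to 14310199 of chromosome 1 on the minus strand and Eya2 (XLOC_011483) spans 165595028 to 165771727 of chromosome 2 on the plus strand. Eya3 (XLOC_014126) spans 132639046 to 132724763 of chromosome 4 and Eya4 (XLOC_001887) 23104168 to 23349903 of chromosome 10. In GENCODE M21 other genes lie on the opposite strand within the spans of Eya1 and Eya2, and no source used here gives whether the counting used strand. Other genes also lie on the same strand within Eya1 (Gm37444) and Eya4 (Gm24655), whose reads strand would not separate. The Eya values are uncertain to that extent.

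Six4 and Six5 were expressed at middling levels throughout, with small regional differences. Six4 stood at 10.9 FPKM in dorsal and 14.2 in ventral cloaca, and at 9.70 in hindgut and 14.2 in urethra. The ventral value was the higher at both ages, with differences of 0.35 and 0.50. Six5, the gene next to the myotonic dystrophy kinase gene Dmpk, stood at 20.3 FPKM in dorsal and 14.4 in ventral cloaca, and at 14.3 in hindgut and 14.4 in urethra. Its difference was -0.47 at E10.5 and 0.01 at E13.5. Neither gene reached 1 log2 unit at either age. The level of Six5 was 1.85 times that of Six4 in dorsal cloaca, and the genes stood within 1.02 times of each other in ventral cloaca and urethra.

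Six2, which holds kidney progenitors undifferentiated, was low in the cloaca and did not reach 1 log2 unit at either age. It stood at 0.904 FPKM dorsally and 1.38 ventrally at E10.5, and at 4.18 in hindgut and 3.87 in urethra at E13.5. The differences were 0.32 and -0.09. At E10.5 the ventral value was 1.53 times the dorsal one, or 0.61 log2 units with no pseudocount. In the E10.5 table it was kept through the ventral value alone. Its share of the summed FPKM of Six2, Six4 and Six5 was 2.81% and 4.61% at E10.5 and 14.8% and 11.9% at E13.5, so that its place among them differed more between ages than between regions.

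**Figure D3:**
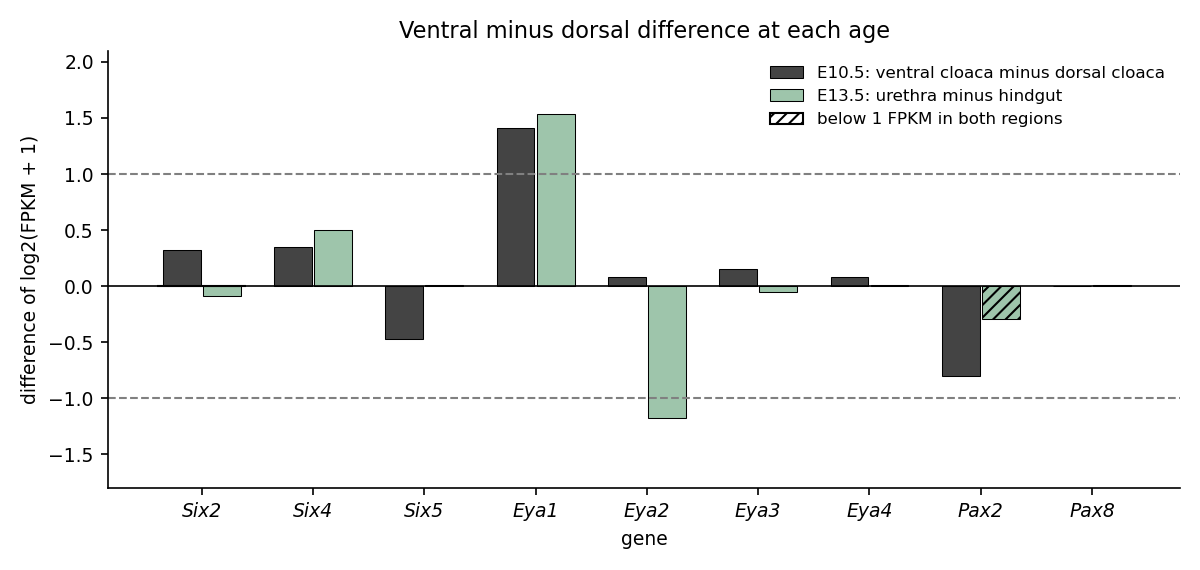
Difference of log2(FPKM + 1), ventral minus dorsal, of each gene at E10.5 (dark bars) and E13.5 (light bars). Dashed lines mark 1 log2 unit and hatched bars mark values below 1 FPKM in both regions. Only Eya1 (1.41 and 1.54) and, at E13.5, Eya2 (-1.18) pass the lines.

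The 3 homeobox genes lie apart on the genome: Six2 (XLOC_009283) at 85684268 to 85688254 of chromosome 17, Six4 (XLOC_004674) at 73100259 to 73113245 of chromosome 12 and Six5 (XLOC_017738) at 19094544 to 19098345 of chromosome 7. No other GENCODE gene overlaps any of these spans. The longest exact run shared by any pair of their transcripts was 32 bases, between Six2 and Six4.

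Promoter sequences, 250 bases before to 50 after a start site, were taken from RefSeq (GRCm38.p6). They covered 7 of the 9 genes with 11 start sites; Eya1 and Eya2 had no entry. They were searched on both strands for TCAGGTT, the core of the MEF3 element that proteins of the sine oculis family are known to bind. It was found at 1 of the 11 sites, that of Six4 which coincides with the end of the deposited locus, and in 4.07% of 32851 promoters overall. The Six4 promoter (chr12:73113196-73113495, minus strand) is shown because it holds these letters; capitals mark them, 97 to 91 bases before the start and on the opposite strand to the gene.
Six4: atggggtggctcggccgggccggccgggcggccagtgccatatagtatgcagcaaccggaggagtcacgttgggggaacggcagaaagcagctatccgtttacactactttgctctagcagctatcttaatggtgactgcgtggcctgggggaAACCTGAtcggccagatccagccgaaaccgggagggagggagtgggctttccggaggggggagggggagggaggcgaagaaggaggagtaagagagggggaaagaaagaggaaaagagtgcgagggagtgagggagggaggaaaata

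A match of 7 letters is a description of the sequence, and no binding was measured here. TATAAA was found at none of the 11 start sites, against 13.6% of all promoters, and CCAAT, also on both strands, at 3 of them, against 37.4%.

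Both Pax genes were the lowest of the set at E13.5, but at E10.5 only Pax8 was. Pax2, a marker of the nephric duct, stood at 5.10 FPKM in dorsal and 2.50 in ventral cloaca at E10.5. At E13.5 it stood at 0.234 in hindgut and 0.00748 in urethra, below the minimum in both. The E10.5 dorsal level was 2.05 times the ventral one, a difference of -0.80, and 13.1% of kept features had a lower difference. With a pseudocount of 0.1 the difference was -1.0 and passed the size rule. Pax8 was listed at 0 in both regions at E10.5 and in hindgut, and at 0.00602 FPKM in urethra. A value of 0 in such a table can be a failed estimate, so no fold is given for Pax8.

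Pax2 (XLOC_010145) spans 44757394 to 44837869 of chromosome 19 on the plus strand, and Pax8 (XLOC_011645) spans 24420560 to 24475566 of chromosome 2 on the minus strand. The tables give the span of Pax2 also to 1700039E22Rik, a gene on the opposite strand, which was listed at 0 in all 4 columns. Mir6405 lies within Pax2 on the same strand. The value of Pax2 is less certain for these reasons.

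Promoters of a gene expressed in every column and of one listed at or near 0 are shown side by side, a pair chosen after the values were seen. Counted as CG dinucleotides, the Eya3 promoter at the deposited start (chr4:132638796-132639095, plus strand) held 25, more than 81.6% of all promoters, and that of Pax8 (chr2:24475550-24475849, minus strand) held 7, the median over all promoters. They are shown with each CG in capitals.
Eya3: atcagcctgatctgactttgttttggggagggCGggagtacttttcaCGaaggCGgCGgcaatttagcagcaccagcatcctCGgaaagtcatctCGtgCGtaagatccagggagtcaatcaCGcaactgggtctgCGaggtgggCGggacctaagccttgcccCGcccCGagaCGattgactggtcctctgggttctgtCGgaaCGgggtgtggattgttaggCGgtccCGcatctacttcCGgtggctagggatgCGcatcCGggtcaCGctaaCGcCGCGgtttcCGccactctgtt
Pax8: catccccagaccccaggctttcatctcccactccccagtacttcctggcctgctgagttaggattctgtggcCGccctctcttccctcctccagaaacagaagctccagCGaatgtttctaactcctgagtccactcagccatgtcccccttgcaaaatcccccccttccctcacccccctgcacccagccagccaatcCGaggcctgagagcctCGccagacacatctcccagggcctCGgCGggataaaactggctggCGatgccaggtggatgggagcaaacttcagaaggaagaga

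CG count did not follow level across the members. Six2, at 0.904 to 4.18 FPKM, had 37 at its start site, and Six4 and Six5, both at 9.70 FPKM or more in every column, had 16 and 17. The Pax2 start site nearest the deposited locus had 30.

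In order of level, Six5, Eya3 and Six4 held the first 3 places in all 4 columns, in changing order. Eya1 held place 4 in ventral cloaca at 9.71 FPKM, 3.89 times Pax2 which came next, and place 7 in hindgut. Pax2 held place 4 in dorsal cloaca at 5.10 FPKM and place 8 in both E13.5 columns. Without values per embryo, neighbours in this order cannot be separated by a test; the closest, such as Six5 and Six4 in ventral cloaca at 14.4 and 14.2 FPKM, differed by 1.01 times.

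Each age has its own table with its own normalization, so levels at E10.5 and E13.5 are set side by side without a test. Six2 stood at 4.62 times its E10.5 level on the dorsal side and 2.80 times on the ventral side. Eya1 was 5.22 times higher at E10.5 dorsally and 2.70 times ventrally. For Eya2 the dorsal ratio of E13.5 to E10.5 was 3.21 and the ventral one 1.04. After each column was divided by the upper quartile of its features above 0, these ratios were 4.71 and 3.36 for Six2, 5.13 and 2.25 for Eya1, and 3.27 and 1.25 for Eya2. Pax2 was 21.8 times higher at E10.5 on the dorsal side, or 21.4 times after that scaling.

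**Figure D4:**
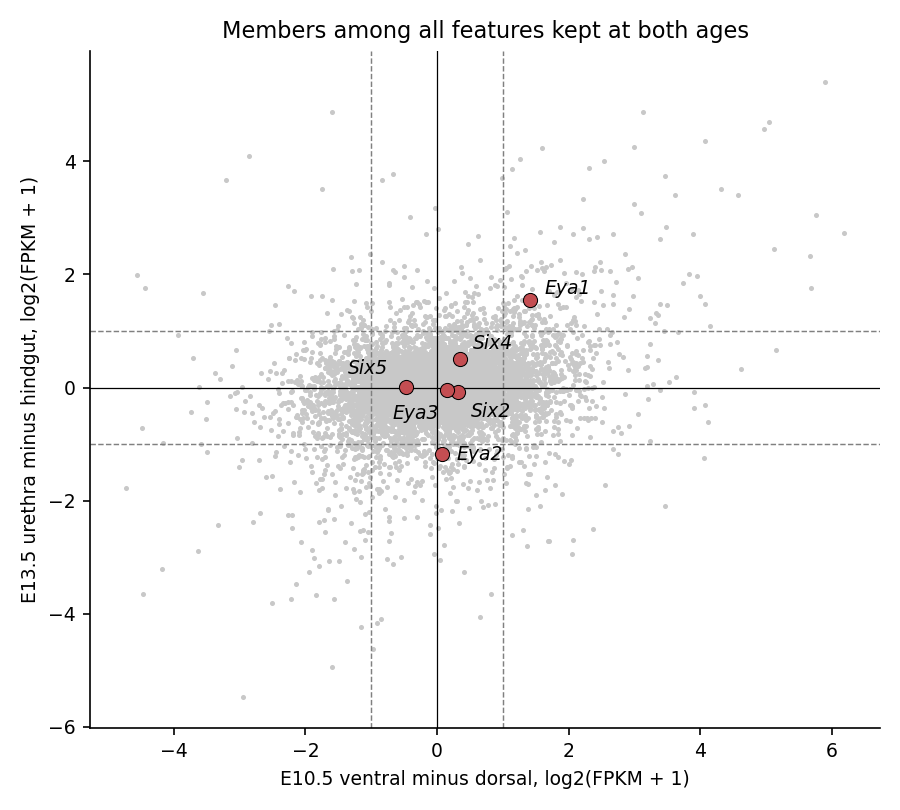
Difference of log2(FPKM + 1), ventral minus dorsal, at E10.5 (horizontal) and at E13.5 (vertical), for the 11486 features kept at both ages (grey) and the 6 members among them (red). Dashed lines mark 1 log2 unit. Eya1 lies in the upper right corner past both lines, Eya2 lies below the lower line near 0 at E10.5, and the others lie within all 4 lines.

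Other genes of the same families and their co-factors were mostly near 0; Dach1 and Pax9 stood higher ventrally at both ages and Dach2 at E13.5. Of 11 further genes of the sine oculis, Pax and Dach families, 3 were kept at each age and 7 were listed at 0 in both regions at E10.5. Dach1 stood at 1.62 FPKM in dorsal and 6.67 in ventral cloaca, and at 1.14 in hindgut and 3.99 in urethra, with differences of 1.55 and 1.22. Dach2 was even at E10.5, at 1.68 and 1.57 FPKM, and stood at 1.01 in hindgut and 3.64 in urethra, a difference of 1.20. Pax9, a paired-box gene of endoderm and skeletal precursors, stood at 2.45 and 6.47 FPKM at E10.5 and at 2.68 and 12.9 at E13.5, with differences of 1.12 and 1.92. The 3 kept genes thus counted 2 higher ventrally at E10.5 and 3 at E13.5, where 10.6% and 4.16% of all kept features were, with medians of 1.12 and 1.22 beside 0.04 and 0.01. Over all 11 genes the median was 0 at both ages, and a pseudocount of 5 left 0 genes past 1 unit at E10.5 and 1 at E13.5.

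Genes of the nephric duct and ureteric bud, the site where Pax2 acts, lay on both sides. Of 14, 10 were kept at E10.5, with 2 at least 1 unit higher ventrally and 1 dorsally, where 10.6% and 9.62% of all kept features were. At E13.5 9 were kept, with 1 on each side, where 4.16% of all kept features were higher in urethra and 4.59% in hindgut. The medians were 0.13 and 0.26. Ret, the receptor gene of the ureteric bud, was higher dorsally at E10.5 like Pax2, at 7.03 FPKM against 2.2, while its co-receptor gene Gfra1 stood at 1.43 against 5.16. Lhx1 and Emx2, both needed for the nephric duct, did not pass 0.333 FPKM in any column. The part of duct cells in the Pax2 level was not tested.

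Genes of nephrogenic mesenchyme, in which Six2, Eya1 and Pax2 work together, were mixed at E10.5. Of 12, 10 were kept there, with 2 at least 1 unit higher ventrally and 4 dorsally, and 8 at E13.5, with 2 higher in urethra and none in hindgut, beside the same shares of all kept features. The medians were -0.02 and 0.74. Osr1, an early gene of intermediate mesoderm, stood at 42.3 FPKM in dorsal and 105 in ventral cloaca, and at 6.75 in hindgut and 26.1 in urethra. Gdnf, the ligand of Ret, stood at 0.25 FPKM dorsally and 3.89 ventrally at E10.5, and at 0.74 and 0.68 at E13.5. Foxc2 and Cited1 were higher in dorsal cloaca, at 6.58 against 2.47 FPKM and 37.4 against 16.9. Wt1, which marks kidney mesenchyme, did not pass 0.08 FPKM in any column.

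**Figure D5:**
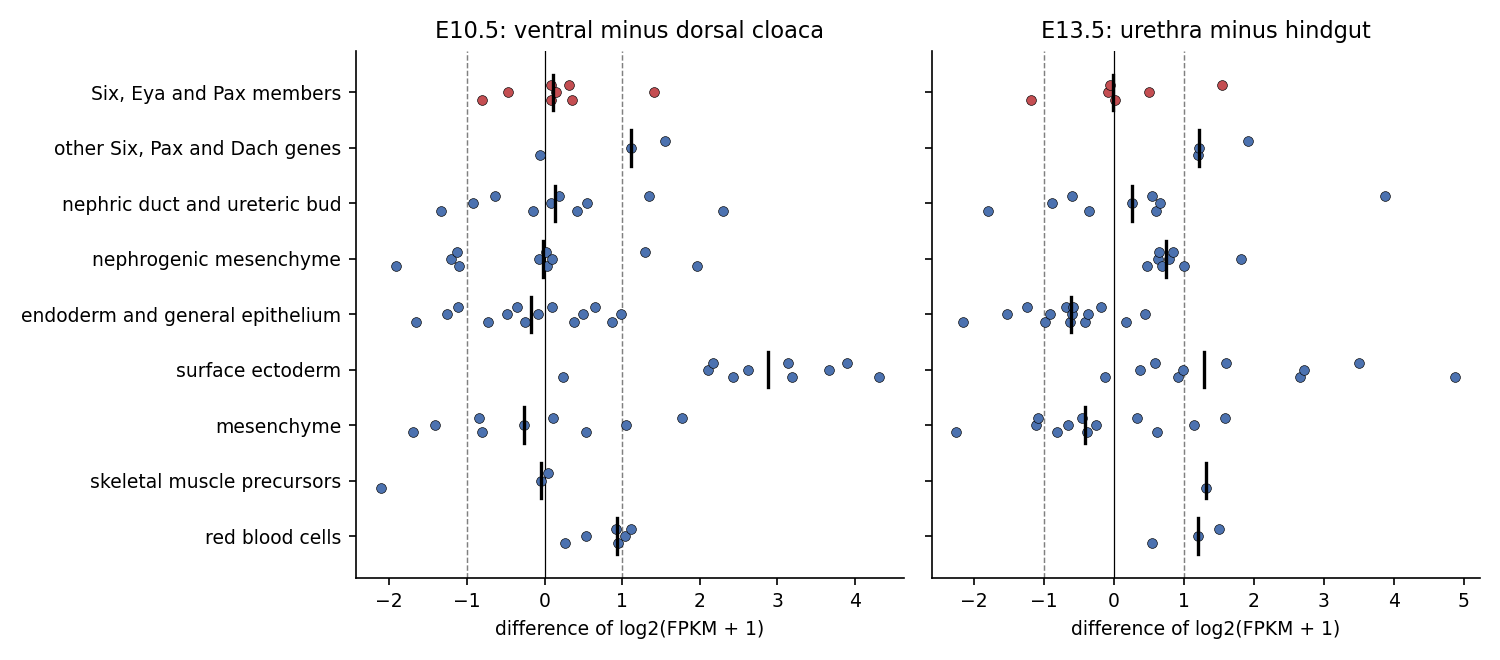
Difference of log2(FPKM + 1) of each kept gene at E10.5 (left) and E13.5 (right), for the members (red) and for lists of related genes and markers of other cell types (blue). Black bars are medians and dashed lines mark 1 log2 unit. Surface ectoderm genes lie furthest to the ventral side at E10.5, with a median of 2.88, while the members centre on 0.12 and -0.02.

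The features most like a member were found as those with the smallest Euclidean distance over the 4 values of log2(FPKM + 1), for the 6 members with at least 5 FPKM in some column. Nearest to Eya1 were Col4a6, a basement membrane collagen gene, at a distance of 0.38, and Maf, a leucine zipper transcription factor gene, at 0.39. Col4a6 stood at 2.37 and 9.18 FPKM at E10.5 and at 0.842 and 3.12 at E13.5. Nearest to Eya2 were Sgsm1 at 0.24 and Ak1, an adenylate kinase gene, at 0.35. Sgsm1 stood at 2.13 FPKM in both cloacal regions, at 5.63 in hindgut and at 1.79 in urethra. For Pax2 they were Ddo, the aspartate oxidase gene, at 0.27, and Rgs20 at 0.35. Six4 had Dcaf5 at 0.10 and Exoc6b at 0.17, Six5 had Zfp828 at 0.10 and Vrk1 at 0.14, and Eya3 had Larp4 at 0.11 and Cdk13 at 0.12. With only 4 values per gene and 23234 features, nothing further is read from these matches. With a pseudocount of 5, 10 of the 12 were the same, with Camk1g in place of Maf and Rcor1 in place of Exoc6b.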

How the data were processed

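RNA was amplified from sub-nanogram amounts with a whole-transcriptome kit before library construction, per the labels' protocols. The authors deposited 2 tables of FPKM, each with a dorsal and a ventral column, per the file headers. The submitters' processing notes name Cufflinks 2.2.1 and mm10. No source used here gives the aligner, the annotation or the way in which libraries were combined, and the depth is unknown. The age of a table rests on its name. Locus starts in the tables count from 0, so 1 was added. From these FPKM, log2(FPKM + 1) was compared between regions of a table, for features with at least 1 FPKM in either region; a difference of at least 1 was counted, which is a rule of size only. No test was possible. Calculations were tested on simulated data with large changes planted in well-expressed features only. That check does not cover low levels such as those of Six2, Eya2 and Eya4. Members and the 11 gene lists (110 entries, all matched) were chosen with earlier results of these data known. Named genes are the members, up to 4 list genes per list and age with at least 5 FPKM and a difference past 1, and the 2 nearest features per member; Dach2, Gdnf, Lhx1, Emx2, Wt1, Epcam, Myod1, Myog, Msc, Dazl, Ddx4 and Dppa3 were added after their values were seen, and several further genes meeting the rule are not reported here. Paralog runs came from GENCODE M21 transcripts, 1 a gene, and alignments from Biopython 1.88; other steps used pandas 2.3.3 and NumPy 2.4.6. Alternatives were pseudocounts of 0.1 and 5, no pseudocount (chosen after seeing the data), upper-quartile and quantile scaling, other minimums and a size rule of 1.5-fold.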

Additional observations from a re-analysis of the deposited data

How the results depend on the processing

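No paired analysis was possible because the tables hold 1 value per region and none per embryo; for the same reason no replicate could be left out. A pseudocount changes the size of a difference but cannot turn its direction. Both scalings were small beside the differences of Eya1 and of Eya2 at E13.5, and left their directions as they were. Over both pseudocounts and both scalings the differences ranged from 0.87 to 1.64 (Eya1, E10.5), 0.62 to 2.44 (Eya1, E13.5) and -1.46 to -0.64 (Eya2, E13.5). The values nearest 0 were those with a pseudocount of 5. With that pseudocount the count of members past 1 unit was 0 in place of 1 in ventral cloaca, in urethra and in hindgut. With a minimum of 5 FPKM it was 0 in urethra. In dorsal cloaca it was 1 in place of 0, from Pax2, with a pseudocount of 0.1 or a size rule of 1.5-fold. Over all list genes, a pseudocount of 5 gave 10 in place of 19 in ventral cloaca, 4 in place of 12 in dorsal cloaca and 10 in place of 16 in urethra; the size rule of 1.5-fold gave 18 in place of 8 in hindgut and 26 in place of 16 in urethra. Without a minimum the median of the muscle precursor list at E13.5 was -0.08 in place of 1.31, which was the value of 1 kept gene, Msc. With no pseudocount the Pax2 difference at E10.5 was -1.03. Neither scaling moved the median of all kept features by more than 0.04. Over all kept features the pseudocount of 5 left 3.24% higher ventrally and 2.63% dorsally at E10.5, and 1.40% and 1.84% at E13.5. The size rule of 1.5-fold gave 21.1% ventrally and 18.8% dorsally at E10.5, and 9.81% in urethra and 10.2% in hindgut. With a pseudocount of 0.1, 12.7% of all kept features were higher dorsally at E10.5. The counts of members and list genes under these settings stand beside these shares.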
